A study of Medicago truncatula with 16 samples.

Results

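RNA-Seq libraries of the cotyledons of germinating *Medicago truncatula* seeds at the 1 mm stage were compared with and without an osmotic treatment in polyethylene glycol (PEG). The libraries were chosen by their labels alone and are the C1P and C1 replicates, 2 of each, so that 4 of the 16 libraries of the series carry the comparison. The remaining libraries are cotyledons of the 5 mm stage (C5P and C5) and radicles of both stages, and the R1P and R1 radicles come from the same stage as C1P and C1. All plants were of cultivar A17. C1 cotyledons were taken from seeds with a protruded radicle of 1 mm. C1P cotyledons came from seeds of the same radicle length after 3 days in PEG8000 at -1.7 MPa, 10 °C and in the dark. The series has no group held in the cold and dark but without the osmoticum, so the effects of PEG and of those 3 days cannot be told apart. Each library pooled many seeds, 50 by the text of the series and about 100 by the extraction protocol, and that protocol speaks both of desiccated organs and of freshly harvested seeds, so whether the cotyledons had been dried is not settled. Whether a cotyledon library and a radicle library were dissected from the same seeds is not stated.

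Cotyledons of *Medicago* are storage organs of the embryo. They hold protein bodies and oil bodies laid down during seed maturation, and they are emptied to feed the seedling after germination. The maturation programme also provides late embryogenesis abundant (LEA) proteins, small hydrophilic proteins thought to protect membranes and enzymes in the dry state, together with oligosaccharides of the raffinose family. Abscisic acid (ABA) and the transcription factors ABI3, ABI4 and ABI5 drive much of that programme, which is shut down when the seedling begins to grow. PEG in the medium withholds water without entering the cells.

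Levels are given as CPM, estimated counts scaled to a common total after TMM normalization across the 8 cotyledon libraries, and do not account for gene length. Estimated counts summed to 22837335 and 22012976 in C1P and to 22718870 and 22866748 in C1. The 2 replicates of C1 had a Pearson correlation of 0.984 across genes on the log2 scale, and those of C1P 0.958. Marker genes were chosen from libraries other than C1 and C1P, PEG-treated ones included, with CPM scaled by library totals alone. Cotyledon markers had at least 20 CPM in each C5 and C5P library and at most 1 CPM in each radicle library. Radicle markers had at least 20 CPM in each radicle library and at most 1 CPM in each C5 and C5P library. The 18 cotyledon markers had over 3 counts in each of the 4 C1 and C1P libraries. They summed to 946 and 856 CPM in C1P and 667 and 744 CPM in C1. Of 23 genes that mark the radicle, 18 and 19 had 3 or fewer counts in C1P, and 11 and 10 in C1. Their summed level was 2.59 and 1.68 CPM in C1P and 8.61 and 6.69 CPM in C1, against 2175 to 3526 CPM in radicles, so their level was low in both groups and higher in C1 than in C1P. Radicle RNA in the sample and low expression in the cotyledon itself cannot be told apart here, and the part of these genes in the results was not tested.

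C1P replicate 2 stood apart. Chloroplast-encoded genes took 4.06% of its counts, against 0.723% in C1P replicate 1, 0.477% and 0.328% in C1, and at most 0.923% in any of the 15 other libraries. Among 11224 genes averaging 10 CPM or more, 8.62% were over 2-fold apart between the C1P replicates and 0.989% between the C1 replicates. The SD of the log2 difference between replicates was 0.793 in C1P and 0.341 in C1. Genes over 8-fold apart numbered 98 in C1P, 24 of them encoded in organelles, and 7 in C1, 1 of them in an organelle. Moreover, 20 genes were at exactly 0 in C1P replicate 2 although they had at least 10 CPM in each of the 7 other cotyledon libraries, and no other cotyledon library had such a gene. For these genes 99.3% of the estimates in the other libraries were not whole numbers, which means that their reads were divided between similar transcripts. Each result below is therefore given with its value when C1P replicate 2 is left out, where that value ends a call or moves by over 1.5 times.

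**Figure D1:**
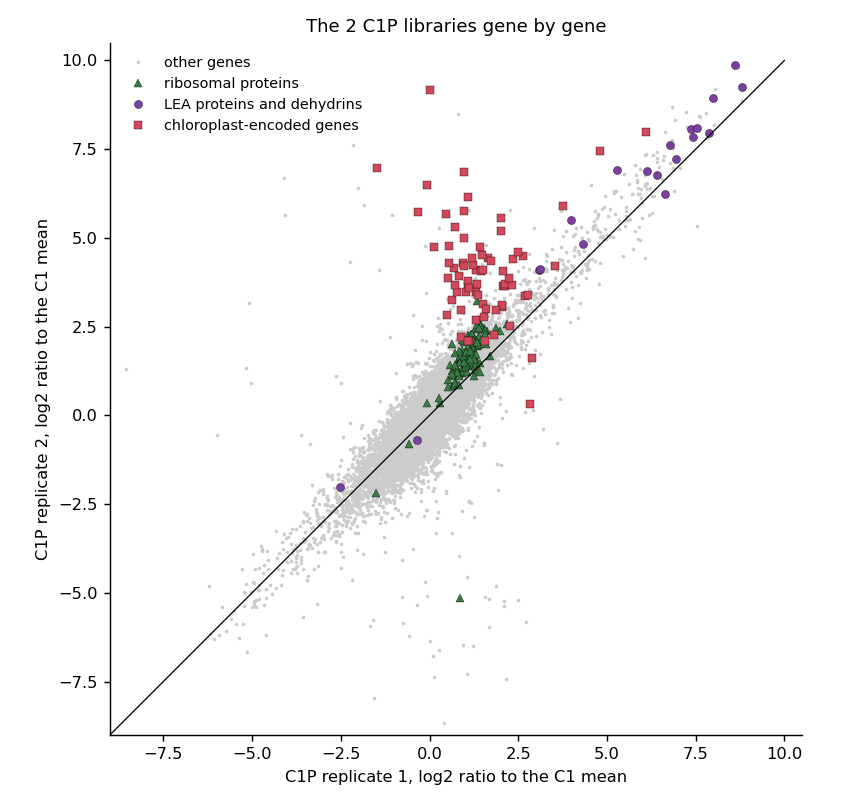
Each point is 1 of 11224 genes averaging 10 CPM or more, placed by its log2 ratio to the C1 mean in C1P replicate 1 (x axis) and in C1P replicate 2 (y axis), with 118 ribosomal protein genes, 19 LEA genes and 71 chloroplast-encoded genes drawn in colour and the line of equality in black. LEA genes lie near the line, whereas most chloroplast-encoded genes lie above it, which means that they were higher in replicate 2.

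Of 23060 genes tested, 3171 rose (13.8%) and 3442 fell (14.9%) in C1P, where a call needed both a Benjamini-Hochberg adjusted p below 0.05 in edgeR's quasi-likelihood test and a change of more than 2-fold. The changes were large: 682 genes rose and 942 fell by over 3 on the log2 scale, and 76 rose and 123 fell by over 7. The median log2 fold change was 1.75 among genes that rose and -2.07 among genes that fell. The groups did not overlap for 3159 of the genes called higher and 3442 of those called lower, whereas among all tested genes 32.1% had both C1P libraries above both C1 libraries and 38.3% had both below. Without C1P replicate 2, 2524 genes were higher and 2522 lower (10.4% each of 24246), of which 2243 and 2244 were called the same way with all libraries. Without it, 3168 of the 3171 and 3442 of the 3442 kept their sign.

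The direction of the whole set of calls depends on the scaling. In C1P the 20 genes with the most counts took 14.7% and 16.0% of a library, against 9.40% and 9.39% in C1, and TMM factors were 0.8399 and 0.7015 in C1P and 1.158 and 1.141 in C1. With TMM the median of all genes was -0.08 on the log2 scale and 47.95% of calls were higher, whereas with library totals alone the median was -0.66 and 19.9% were higher (1590 higher, 6382 lower). Changes below are relative to the TMM scale, in which the typical gene is near 0. In bulk RNA, fewer cells of a type and less RNA per cell cannot be told apart. The p-values for C1P against C1 rest on a spread estimated from all 8 cotyledon libraries, 2 biological replicates in each of 4 groups, and moderated across genes. C5 and C5P replicates thus contribute to it, and the wider spread between the C1P replicates is not modelled separately. The smallest p of an exact permutation test of 2 against 2 is 0.333, and single genes were therefore tested only within the model of all genes.

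Genes of the maturation programme were prominent among the rises: of the 10 largest among genes of at least 10 CPM with an annotation other than putative or hypothetical protein, 6 encode LEA proteins or dehydrins, 2 are oil body genes, 1 is a cupin and 1 an aldose reductase. Annotations were read from gene tables that the study built on its radicle libraries and chromatin data, which hold 4267 of the tested genes, so the lists below contain genes chosen because they changed in radicles. Among these annotated genes 28.1% rose and 24.1% fell in C1P. Annotated genes from tables of genes raised in R1P rose in 57% of cases, and those from tables of genes lowered in R1P fell in 51%. A list is best read against the shares of the tables that most of its members came from. Tables of genes raised in R1P supplied most tested genes for water channels, ABA, gibberellin, redox enzymes, ribosome biogenesis, nuclear photosynthesis and F-box proteins. Most cell wall enzymes came from tables of genes lowered in R1P. Of the 6613 called genes, 4386 are in none of the tables as read. With that copy, 4774 have no annotation or only that of a putative or hypothetical protein.

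LEA proteins and dehydrins rose almost as a class, with 17 of 20 genes higher, 1 lower and a median change of 6.83 on the log2 scale. Per library the median was 6.53 in C1P replicate 1 and 6.90 in replicate 2, and without replicate 2 the counts were again 17 and 1. Of the 20 genes, 16 came from tables of genes raised in R1P. The dehydrin Chr6g0484671 (identifiers are given without their MtrunA17 prefix, and the digit after Chr is the chromosome) stood at 29.1 and 17.2 CPM in C1 and 10652 and 14525 CPM in C1P, a 544-fold rise (log2 fold change 9.09 ± 0.44 (SE), adjusted p = 3.2e-05). The LEA_4 gene Chr7g0265471 went from 20.0 and 17.3 CPM to 4489.8 and 4770.0 CPM (log2 fold change 7.95 ± 0.37 (SE), adjusted p = 3e-05). In both genes the C1P replicates were close to each other and far above C1.

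*MtEM6* (Chr4g0007001), whose *Arabidopsis* counterpart is a classic late maturation transcript, was at 3.65 and 2.42 CPM in C1 and 579 and 957 CPM in C1P (log2 fold change 7.98 ± 0.39 (SE), adjusted p = 3.2e-05). *MtPM25* (Chr1g0205331), of the seed maturation protein subgroup, was at 3.81 and 3.38 CPM and 704 and 943 CPM (log2 fold change 7.84 ± 0.77 (SE), adjusted p = 0.00027). A second member of that subgroup, Chr1g0191151, had the larger change, from 0.837 and 0.46 CPM to 288 and 559 CPM (log2 fold change 9.34 ± 0.54 (SE), adjusted p = 3.6e-05). All 3 were therefore nearly silent in C1 and among the well expressed genes in C1P.

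The adjacent LEA_1 genes Chr7g0258631 and Chr7g0258641 also rose. The former was at 11.5 and 8.44 CPM in C1 and 4065 and 9750.1 CPM in C1P (log2 fold change 9.44 ± 0.83 (SE), adjusted p = 0.00017, 8.68 without C1P replicate 2), and its estimates were not whole in any of the 16 libraries, so reads shared with a similar gene make its level uncertain. The latter went from 88.2 and 68.3 CPM to 9663 and 11692 CPM (log2 fold change 7.09 ± 0.43 (SE), adjusted p = 4e-05). The dehydrin Chr8g0392291 was already at 639 and 526 CPM in C1 and rose to 5043 and 10243 CPM (log2 fold change 3.71 ± 0.69 (SE), adjusted p = 0.0052, 3.11 without C1P replicate 2), so that not every member started from near silence. That call ended without C1 replicate 2 (3.60, adjusted p = 0.0553).

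The LEA_2 subgroup was divided. Chr8g0348171 rose from 1.64 and 0.959 CPM to 336 and 489 CPM (log2 fold change 8.31 ± 0.58 (SE), adjusted p = 6.3e-05), while its neighbour by identifier, Chr8g0348161, fell from 20.2 and 18.1 CPM to 2.92 and 4.34 CPM (log2 fold change -2.40 ± 0.45 (SE), adjusted p = 0.0056). The further LEA_2 genes Chr2g0330241 (log2 fold change -0.52, adjusted p = 0.097) and Chr2g0278391 (-0.67, adjusted p = 0.074) did not pass the test. LEA_2 proteins are less hydrophilic than the other subgroups and are not restricted to seeds in other plants.

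Genes for oil bodies, the droplets of storage lipid that oleosins coat, rose in 9 of 9 cases, by a median of 6.34 on the log2 scale. Of the 9 genes, 7 came from tables of genes raised in R1P. The *AtOLEO1* orthologue Chr1g0196841 was at 2.24 and 1.65 CPM in C1 and 481 and 830.4 CPM in C1P (log2 fold change 8.39 ± 0.41 (SE), adjusted p = 3.2e-05), and oleosin Chr7g0227501 at 26.3 and 22.1 CPM and 1665 and 2265 CPM (log2 fold change 6.34 ± 0.33 (SE), adjusted p = 3.3e-05). The *AtOLEO4* orthologue Chr6g0449621 had a smaller rise, from 10.7 and 10.2 CPM to 320.0 and 362 CPM (log2 fold change 5.03 ± 0.52 (SE), adjusted p = 0.00036). Other oleosins rose as well, Chr3g0139191 by 7.06 and Chr2g0307331 by 6.70 on the log2 scale. In each of these genes both C1P libraries lay far above both C1 libraries, and without C1P replicate 2 the list again had 9 of 9 higher.

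The seed peroxygenase Chr1g0186321, of the caleosin family that also sits on oil bodies, rose from 3.35 and 3.49 CPM to 457 and 724 CPM (log2 fold change 7.43 ± 0.42 (SE), adjusted p = 3.6e-05). The oil body-associated protein Chr3g0122181, which is outside the list, had the largest rise of any gene of at least 10 CPM annotated as more than a putative or hypothetical protein, from 0.609 and 0.806 CPM to 536 and 561 CPM (log2 fold change 9.59 ± 0.42 (SE), adjusted p = 3e-05), with the reservation that its estimates were not whole in 14 libraries. By contrast the *AtTAG1* orthologue Chr2g0299671, an acyltransferase for the last step of triacylglycerol synthesis, rose only 3.31-fold, from 3.69 and 4.76 CPM to 15.8 and 12.1 CPM (log2 fold change 1.72 ± 0.28 (SE), adjusted p = 0.0027). Transcripts of coat proteins thus changed far more than that of the enzyme, a comparison of changes and not of levels.

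**Figure D2:**
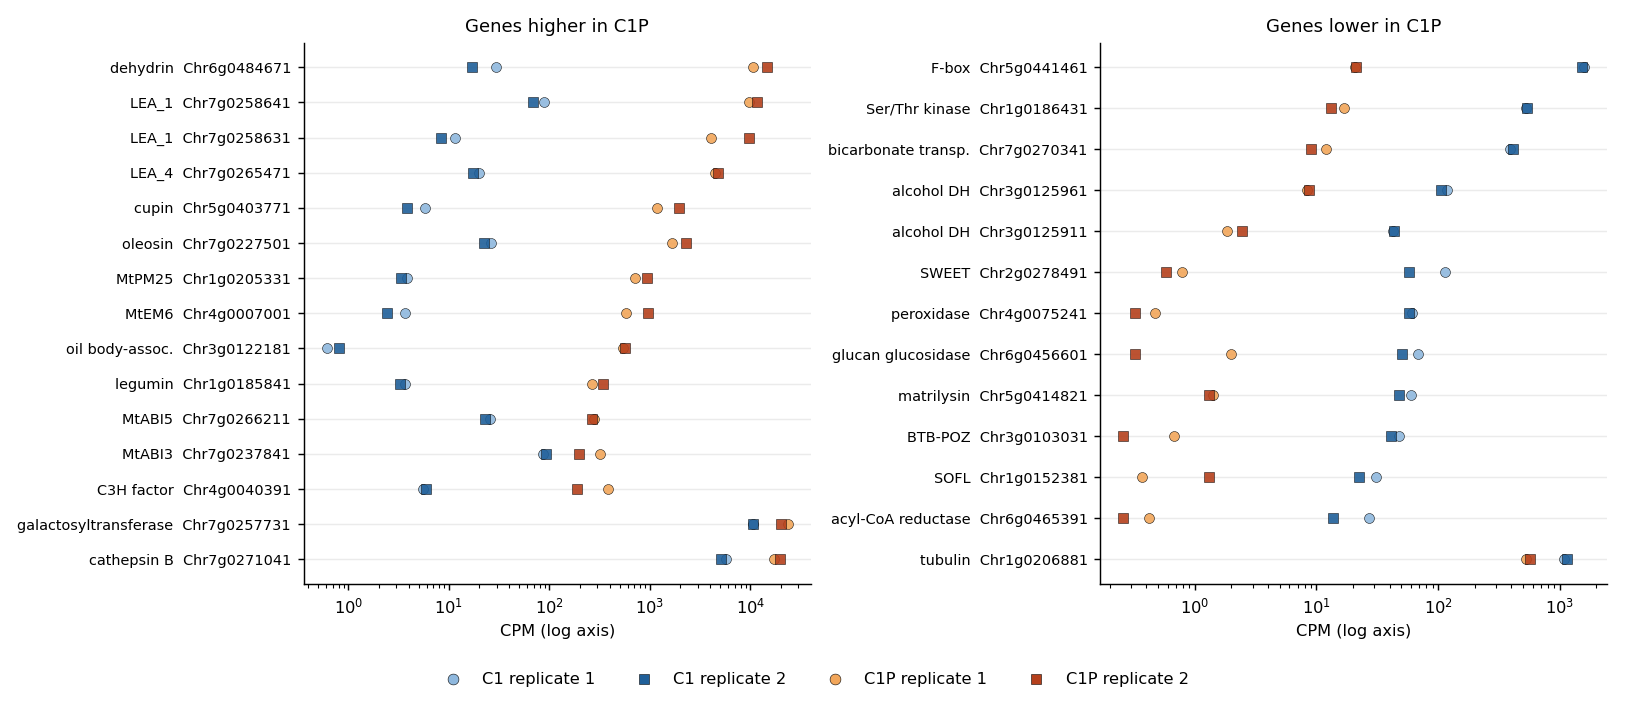
CPM on a log axis of 15 genes higher (left) and 13 genes lower (right) in C1P, with 1 point per library, circles for replicate 1 and squares for replicate 2. C1 and C1P libraries do not overlap for any gene shown, and C1 replicates of the dehydrin Chr6g0484671 are at 29.1 and 17.2 CPM against 10652 and 14525 CPM in C1P.

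Storage protein genes rose in 7 of the 8 tested members of a list of 10, by a median of 3.49 on the log2 scale, and in 5 of 8 without C1P replicate 2. All 8 tested members came from tables of genes raised in R1P. Legumins are the 11S globulins of legume seeds. *MtleguminB* (Chr1g0185841) stood at 3.65 and 3.26 CPM in C1 and 267 and 345 CPM in C1P (log2 fold change 6.47 ± 0.39 (SE), adjusted p = 4e-05), and legumin Chr1g0185821 at 2.05 and 2.65 CPM and 209 and 243 CPM (log2 fold change 6.58 ± 0.41 (SE), adjusted p = 4.3e-05). Another legumin on the same chromosome, Chr1g0185811, was at 28.1 and 27.8 CPM and 30.8 and 34.4 CPM and did not pass the test (log2 fold change 0.22, adjusted p = 0.41). Members of 1 family with adjacent identifiers therefore differed in response, although shared reads limit their separation, since the estimates of all 3 were not whole in 14 or more libraries.

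Legumin Chr7g0261351 was well expressed without treatment, at 176 and 185 CPM, and rose to 435 and 564 CPM (log2 fold change 1.47 ± 0.21 (SE), adjusted p = 0.0017), a call that ended with library totals (0.87). *Mt2SA3* (Chr2g0319551), a gene for a 2S albumin, which is a small sulfur-rich storage protein, rose from 1.94 and 1.92 CPM to 32.3 and 79.6 CPM (log2 fold change 4.85 ± 0.56 (SE), adjusted p = 0.00064, 4.06 without C1P replicate 2), with replicate 2 the higher of the C1P libraries. The cupin gene Chr5g0403771, from the superfamily that includes the storage globulins, went from 5.75 and 3.84 CPM to 1174 and 1944 CPM (log2 fold change 8.34 ± 0.47 (SE), adjusted p = 3.6e-05).

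Enzymes of the raffinose pathway rose in 4 of 7 cases and none fell. The median was 1.86, or 1.42 when 1 gene at the floor of 3 counts per library is set at its bound. Of the 7 genes, 6 came from tables of genes raised in R1P, of which 57% rose in C1P. The count of rises is near that share, so nothing particular to this list is read from it. Galactinol synthase Chr7g0271581, which makes the galactosyl donor, rose from 1.33 and 0.537 CPM to 168 and 115 CPM (log2 fold change 7.24 ± 0.48 (SE), adjusted p = 5.4e-05). Raffinose synthase Chr7g0257731 was already at 10746 and 10663 CPM in C1 and reached 23526 and 19979 CPM, a 2.03-fold rise near the threshold (log2 fold change 1.02 ± 0.29 (SE), adjusted p = 0.028). It was not called with library totals (0.46, adjusted p = 0.19), nor without C1P replicate 1 (0.90, 0.079), C1 replicate 1 (1.07, 0.13) or C1 replicate 2 (1.04, 0.15). The next gene, raffinose synthase Chr7g0257741, was at 1235 and 2080.2 CPM in C1 and 4371 and 1329 CPM in C1P, where replicate 2 lay within the range of C1 (log2 fold change 0.78, adjusted p = 0.28), and it was called without that replicate (1.40, adjusted p = 0.034).

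The low raffinose synthase Chr4g0058701 went from 0.647 and 0.959 CPM to 6.0 and 1.75 CPM (log2 fold change 2.27 ± 0.70 (SE), adjusted p = 0.037, 2.89 without C1P replicate 2), again with replicate 2 the lower. This call was not stable. It ended with library totals (adjusted p = 0.0956), the replicate block (0.0767) and only C1 and C1P in the model (0.0549). A test against the 2-fold threshold (TREAT) ended it as well (0.143). It also ended without C1P replicate 1 (log2 fold change 1.12), C1 replicate 1 (2.06) or C1 replicate 2 (2.60). Stachyose synthase Chr7g0267991, which adds the next galactose, went from 6.51 and 8.33 CPM to 26.3 and 27.5 CPM (log2 fold change 1.86 ± 0.22 (SE), adjusted p = 0.0007). An aldose reductase gene, Chr7g0243551, whose enzyme class reduces sugars to polyols, rose from 0.152 and 0.269 CPM to 43.9 and 58.6 CPM (log2 fold change 7.89 ± 0.64 (SE), adjusted p = 0.00012). Among the 4 called genes of the raffinose list, which does not hold the aldose reductase, galactinol synthase thus had the largest fold rise and raffinose synthase Chr7g0257731, the one with the highest counts, the smallest.

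Water channels of the major intrinsic protein family were few, with 3 of 6 genes higher and 1 lower. Chr1g0188771 rose by 6.46 ± 0.39 (SE) and Chr6g0478191 by 4.80 ± 0.43 on the log2 scale, with adjusted p = 3.9e-05 and 0.00018. Without C1P replicate 2 the count was 2 higher and 1 lower.

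Genes for defensins and proteinase inhibitors rose in 10 of 16 cases and 1 fell, with a median of 2.31, and without C1P replicate 2 the counts were the same and the median 1.72. Of the 16 genes, 14 came from tables of genes raised in R1P, of which 57% rose in C1P, and 2 from tables of genes lowered in R1P. The count of rises is near that share, so nothing particular to this list is read from it. Cystatins inhibit cysteine proteinases. The cystatin *MtPhyCys27* (Chr8g0377741) rose from 3.96 and 3.53 CPM to 162 and 336 CPM (log2 fold change 6.05 ± 0.45 (SE), adjusted p = 8.6e-05, 5.44 without C1P replicate 2), and cystatin Chr3g0122101 from 342 and 276 CPM to 1317 and 3907 CPM (log2 fold change 3.08 ± 0.56 (SE), adjusted p = 0.0047, 2.09 without C1P replicate 2). In both, replicate 2 was over 2-fold above replicate 1 in C1P. Without C1 replicate 2 the latter was not called (2.95, adjusted p = 0.0503).

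Defensins are small antimicrobial peptides of plants. *MtPDF33* (Chr2g0317751) was at 59.0 and 59.6 CPM in C1 and 187 and 535 CPM in C1P (log2 fold change 2.61 ± 0.54 (SE), adjusted p = 0.0081, 1.66 without C1P replicate 2), and was not called without C1 replicate 1 (2.64, adjusted p = 0.062) or C1 replicate 2 (2.63, 0.065). Its neighbour *MtPDF32* (Chr2g0317741) was at 62.7 and 57.0 CPM and 145 and 248 CPM (log2 fold change 1.72 ± 0.42 (SE), adjusted p = 0.016), and this call ended without C1P replicate 2 (1.28, adjusted p = 0.068), C1 replicate 1 (1.83, 0.086) or C1 replicate 2 (1.67, 0.11). *MtPDF51* (Chr8g0385301), for which the tables give an oxidoreductase annotation, was low, at 0.381 and 0.269 CPM and 7.25 and 18.9 CPM (log2 fold change 5.30 ± 0.63 (SE), adjusted p = 0.00068, 4.46 without C1P replicate 2). Cysteine proteinases themselves also rose: cathepsin B Chr7g0271041 from 5728 and 5111 CPM to 17311 and 19769.7 CPM (log2 fold change 1.77 ± 0.38 (SE), adjusted p = 0.0096) and cathepsin L Chr1g0199131 from 756 and 804 CPM to 3811 and 4074 CPM (log2 fold change 2.34 ± 0.26 (SE), adjusted p = 0.00056). The cathepsin B call ended without C1 replicate 1 (1.90, adjusted p = 0.061) or C1 replicate 2 (1.72, 0.081). The inhibitor and proteinase genes named here therefore rose together.

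Of 6 tested ABA genes 2 rose and none fell, and both are transcription factors of ABA signalling. *MtABI5* (Chr7g0266211), a bZIP factor, stood at 25.4 and 23.1 CPM in C1 and 277 and 266 CPM in C1P (log2 fold change 3.48 ± 0.35 (SE), adjusted p = 0.0003). *MtABI3* (Chr7g0237841), a B3 factor of seed maturation, went from 87.0 and 91.9 CPM to 319 and 199 CPM (log2 fold change 1.54 ± 0.29 (SE), adjusted p = 0.0054). Both C1P libraries exceeded both C1 libraries for each gene. The call of *MtABI3* ended with library totals (0.99) and without C1 replicate 1 (1.54, adjusted p = 0.055) or C1 replicate 2 (1.6, 0.052).

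*MtABI4* (Chr5g0437371), of the AP2-EREBP family, was at 66.5 and 82.9 CPM in C1 and 65.7 and 48.6 CPM in C1P and did not pass the test (log2 fold change -0.39, adjusted p = 0.22). ABA 8'-hydroxylase Chr1g0164371, an enzyme that inactivates ABA, was at 9.97 and 11.7 CPM and 11.5 and 10.1 CPM (adjusted p = 1). The groups overlapped for the hydroxylase, while for *MtABI4* the higher C1P library lay just below the lower C1 library. The median over the list was 0.28 with TMM and -0.27 with library totals, so the list as a whole has no direction that holds under both.

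Transcription factor families were mixed. Among AP2-EREBP factors 13 of 34 rose and 3 fell, and among bZIP factors 8 of 16 rose and 2 fell. Among MYB factors 9 of 34 rose and 11 fell, and among WRKY factors none of 6 rose and 2 fell. Tables of genes raised in R1P held 21 of the AP2-EREBP and 7 of the bZIP genes. Those of genes lowered in R1P held 18 of the MYB and 5 of the WRKY genes. With library totals 10 AP2-EREBP factors rose and 4 fell, and 4 bZIP factors rose and 3 fell. The counts were then 7 and 16 for MYB and 0 and 2 for WRKY. AP2-EREBP factor Chr1g0153151 rose from 16.3 and 12.2 CPM to 387 and 565 CPM (log2 fold change 5.06 ± 0.45 (SE), adjusted p = 0.00018) and Chr8g0375031 from 0.571 and 0.767 CPM to 19.6 and 30.7 CPM (log2 fold change 5.22 ± 0.48 (SE), adjusted p = 0.00022). The bZIP factor Chr7g0266041 rose from 20.9 and 22.9 CPM to 321 and 265 CPM (log2 fold change 3.74 ± 0.27 (SE), adjusted p = 7.7e-05). These rises were each several times larger than the difference between the C1P replicates.

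The zinc-finger factor Chr4g0040391 of the C3H family had one of the larger rises among regulators, from 5.52 and 5.87 CPM to 379 and 188 CPM (log2 fold change 5.64 ± 0.41 (SE), adjusted p = 7.9e-05), and here replicate 1 was the higher C1P library. The GATA factor Chr3g0140331 rose from 7.27 and 11.3 CPM to 111 and 132 CPM (log2 fold change 3.71 ± 0.27 (SE), adjusted p = 8.3e-05). Conversely, the MYB-related gene Chr4g0044421 was at 2.89 and 3.45 CPM in C1 and had no counts in C1P, and against the floor of 3 counts per library it was at least 18.1-fold lower.

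Of 8 gibberellin genes tested 3 rose and 2 fell. Gibberellin 2-oxidases inactivate the hormone, and 2 of them moved apart. Chr2g0285931 rose from 3.01 and 4.49 CPM to 26.4 and 20.7 CPM (log2 fold change 2.65 ± 0.28 (SE), adjusted p = 0.00041), whereas Chr1g0194321 fell from 10.6 and 8.94 CPM to 3.81 and 3.44 CPM (log2 fold change -1.43 ± 0.24 (SE), adjusted p = 0.0036). The gibberellin-regulated protein gene Chr1g0152851 fell from 64.6 and 60.9 CPM to 6.78 and 10.8 CPM (log2 fold change -2.84 ± 0.32 (SE), adjusted p = 0.00057). *MtDELLA3* (Chr2g0306641), which encodes a repressor of gibberellin responses, was at 0.761 and 0.691 CPM and 2.03 and 1.30 CPM and did not pass the test (adjusted p = 0.32).

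Ribosomal protein genes rose by a modest amount in large number. Of 125 tested, 96 rose, 3 fell and 116 had a log2 fold change above 0, with a median of 1.41, and 115 of the 125 came from tables of genes raised in R1P. The median was 1.09 in C1P replicate 1 and 1.63 in replicate 2, and without replicate 2 only 46 were called higher and 2 lower, with a median of 1.09. Since many members lie close to the threshold of 1, that count moves easily, and with library totals the median was 0.80 with 33 higher and 5 lower. Ribosomal protein S2 Chr3g0129861 was at 675 and 639.7 CPM in C1 and 1536 and 2160.4 CPM in C1P (log2 fold change 1.49 ± 0.24 (SE), adjusted p = 0.003), and L2 Chr7g0247311 at 671 and 631 CPM and 1307 and 1796 CPM (log2 fold change 1.25 ± 0.25 (SE), adjusted p = 0.0066). Neither was called with library totals (0.89 and 0.66), and L2 was not called without C1 replicate 2 (1.23, adjusted p = 0.062).

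The S17e gene Chr8g0375841 rested on replicate 2, at 22.6 and 15.7 CPM and 49.5 and 183 CPM (log2 fold change 2.60 ± 0.67 (SE), adjusted p = 0.019), and was not called without it (1.37, adjusted p = 0.095), nor without C1 replicate 1 (2.93, 0.080) or C1 replicate 2 (2.38, 0.13). The 3 genes of the list that fell, named after their values were seen except for the first, were L14P Chr3g0079201 (-3.93 on the log2 scale), L30e Chr6g0481411 (-1.86) and Chr1g0195721 (-1.96), and the last of them was not called without C1P replicate 2 (-1.51, adjusted p = 0.068), C1 replicate 1 (-1.98, 0.078) or C1 replicate 2 (-1.88, 0.096). In ribosome biogenesis and translation initiation 5 of 18 rose and 2 fell, without C1P replicate 2 the counts were 4 and 0, and with library totals 0 rose and 2 fell. The nucleolar GTP-binding protein Chr2g0317811, a ribosome assembly factor class, rose from 315 and 339.7 CPM to 902 and 901 CPM (log2 fold change 1.46 ± 0.19 (SE), adjusted p = 0.00099) and was not called with library totals (0.89).

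Chloroplast-encoded genes rose in 75 of 81 cases with all libraries and in 47 of 81 without C1P replicate 2, and none fell either way. Their median was 1.46 in C1P replicate 1 and 3.83 in replicate 2, and the median fold change fell from 3.30 to 1.47 on the log2 scale when replicate 2 was left out. CPg0492371 was at 4.38 and 4.60 CPM in C1 and 339 and 1274 CPM in C1P (log2 fold change 7.49 ± 0.67 (SE), adjusted p = 0.00018) and was also called without replicate 2 (6.24, adjusted p = 1.9e-05). CPg0492311 was at 638 and 398 CPM and 1093 and 6785 CPM (log2 fold change 2.93 ± 0.72 (SE), adjusted p = 0.017), and CPg0492671 at 468 and 186 CPM and 628 and 6386 CPM (log2 fold change 3.42 ± 0.94 (SE), adjusted p = 0.025), and neither was called without it (1.08 and 0.94, adjusted p = 0.051 and 0.2). The same held for both without C1 replicate 1 (log2 fold change 3.34 and 4.27) and without C1 replicate 2 (2.64 and 2.92). Neither was called in a test against the 2-fold threshold (TREAT, adjusted p = 0.058 and 0.073). CPg0492671 was also not called with only C1 and C1P in the model (adjusted p = 0.0657) or with the replicate block (0.0707). A rise was thus present in replicate 1 for part of the plastid genome, at a size that differed between the replicates.

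Mitochondrion-encoded genes followed the same library, with 12 of 20 tested genes higher, a median of 0.62 in replicate 1 and 2.69 in replicate 2, and 3 of 21 higher without replicate 2. With organelle-encoded genes removed before scaling, 3125 nuclear genes rose and 3417 fell, close to the counts with them. Photosynthesis genes of the nucleus rose in 4 of 4 tested cases, in 4 of 5 without C1P replicate 2 and in 2 with library totals. The chlorophyll-binding protein Chr5g0448421, of the light-harvesting antenna, was at 2.78 and 2.11 CPM in C1 and 81.6 and 105 CPM in C1P after 3 days of darkness (log2 fold change 5.25 ± 0.41 (SE), adjusted p = 0.00011).

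Among the genes that fell were enzymes, transporters and regulators with a high level in C1. The F-box gene Chr5g0441461, of a class that selects proteins for degradation, dropped from 1594 and 1521 CPM to 20.8 and 21.3 CPM, a 74.0-fold difference (log2 fold change -6.21 ± 0.33 (SE), adjusted p = 3.5e-05). The serine/threonine kinase Chr1g0186431 dropped from 532 and 541 CPM to 17.0 and 13.2 CPM (log2 fold change -5.15 ± 0.31 (SE), adjusted p = 3.9e-05), and the bicarbonate transporter Chr7g0270341 from 392 and 414 CPM to 12 and 9.01 CPM (log2 fold change -5.26 ± 0.28 (SE), adjusted p = 3.5e-05). The C1P replicates were close in all 3 genes. F-box proteins as a list had 16 of 71 higher and 5 lower, but 3 higher and 6 lower with library totals. With TMM, 55 of the 71 had a log2 fold change above 0. Of the 71, 54 came from tables of genes raised in R1P, of which 57% rose in C1P, so 22.5% was below that share. Within the F-box list Chr1g0149351 fell from 781 and 752 CPM to 208 and 254 CPM (log2 fold change -1.73 ± 0.21 (SE), adjusted p = 0.00073).

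The sugar transporter SWEET Chr2g0278491, of a family that exports sucrose or glucose from cells, was at 113 and 57.3 CPM in C1 and 0.782 and 0.584 CPM in C1P (log2 fold change -6.94 ± 0.57 (SE), adjusted p = 0.00014). The BTB-POZ gene Chr3g0103031 fell by 6.51 ± 0.37 (SE) on the log2 scale, from 47.9 and 41.1 CPM to 0.678 and 0.259 CPM. A fatty acyl-CoA reductase, Chr6g0465391, which forms fatty alcohols for surface waxes, fell from 26.9 and 13.6 CPM to 0.417 and 0.259 CPM, and a glucan endo-1,3-beta-glucosidase, Chr6g0456601, from 68.6 and 50.7 CPM to 1.98 and 0.324 CPM (log2 fold change -5.64, -4.91 without C1P replicate 2). These were among the 10 largest falls of genes annotated as more than a putative or hypothetical protein, which also included the metalloproteinase gene annotated as matrilysin, Chr5g0414821 (-5.31), and the SOFL gene Chr1g0152381 (-5.04, -6.16 without C1P replicate 2).

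Of 13 peroxidases and alcohol dehydrogenases, 8 were tested, of which 6 are in tables of genes lowered in R1P, and 5 of the 8 fell and 2 rose. Peroxidase Chr4g0075241 fell from 60.6 and 57.5 CPM to 0.469 and 0.324 CPM (log2 fold change -7.18 ± 0.39 (SE), adjusted p = 3.5e-05). Peroxidase Chr2g0292111 was at 1.45 and 0.652 CPM in C1 with no counts in C1P, at least 5.98-fold lower against the floor, and peroxidase Chr5g0404721 was too low to be tested. Another peroxidase, Chr4g0074851, rose from 63.7 and 66.4 CPM to 370.3 and 369 CPM (log2 fold change 2.51 ± 0.24 (SE), adjusted p = 0.00026).

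Alcohol dehydrogenases regenerate NAD+ when oxygen is short. Chr3g0125911 fell from 42.3 and 43.8 CPM to 1.83 and 2.46 CPM (log2 fold change -4.33 ± 0.31 (SE), adjusted p = 7.3e-05) and Chr3g0125961 from 118 and 105 CPM to 8.40 and 8.69 CPM (log2 fold change -3.71 ± 0.37 (SE), adjusted p = 0.00031), both with estimates that were not whole in any of the 16 libraries. The zinc-type gene Chr5g0411941 rose instead, from 1.33 and 1.46 CPM to 11.9 and 11.9 CPM (log2 fold change 3.09 ± 0.33 (SE), adjusted p = 0.0004). The genes of this list therefore moved in both directions, and the 2 neighbours on chromosome 3 fell alike.

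Receptor-like kinases and genes of cell division came mostly from tables of genes lowered in R1P, of which 51% fell in C1P. Of 79 receptor-like kinases 27 fell and 4 rose, with a median of -0.95, and without C1P replicate 2 the counts were 18 and 5. Of 35 genes of cell division and microtubules 13 fell and 3 rose, with a median of -1.01, and without replicate 2 the counts were 6 and 3. In the former list 55 of 79 genes, and in the latter 25 of 35, are in such tables, so nothing particular to these lists is read from their counts. The cyclin gene Chr1g0208231 fell from 50.1 and 46.0 CPM to 6.52 and 6.94 CPM (log2 fold change -2.84 ± 0.30 (SE), adjusted p = 0.00044) and the kinesin gene Chr4g0070001, a microtubule motor, from 15.8 and 21.0 CPM to 1.83 and 1.17 CPM (log2 fold change -3.60 ± 0.36 (SE), adjusted p = 0.0003). Tubulin Chr1g0206881 dropped from 1077 and 1143 CPM to 527 and 565 CPM (log2 fold change -1.02 ± 0.20 (SE), adjusted p = 0.0059), at the threshold of 2-fold. It was not called with RLE size factors (-0.97), DESeq2 (-0.97) or all 16 libraries in the model (-0.99), nor without C1P replicate 1 (-0.97) or C1 replicate 2 (-0.96, adjusted p = 0.063).

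Chr5g0418391, an inhibitor of cyclin-dependent kinases of the SMR family, rose from 0.0381 and 0.23 CPM to 4.02 and 16.2 CPM (log2 fold change 6.18 ± 0.95 (SE), adjusted p = 0.0032, 4.85 without C1P replicate 2), with replicate 2 the higher C1P library. Of 37 cell wall enzymes 14 fell and 6 rose, and without C1P replicate 2 the counts were 13 and 3. Xyloglucan transferase Chr2g0323161, which loosens and rejoins wall polymers, fell from 399.8 and 394 CPM to 139 and 217 CPM (log2 fold change -1.16 ± 0.35 (SE), adjusted p = 0.034). That call ended with the replicate block (adjusted p = 0.063) and without C1P replicate 1 (-0.87, 0.13), C1 replicate 1 (-1.11, 0.14) or C1 replicate 2 (-1.15, 0.14). Polygalacturonase Chr2g0297001, which cuts pectin, went from 2.59 and 2.19 CPM to no counts, at least 13.6-fold lower. Pectinesterase Chr3g0079381 rose from 4.83 and 4.07 CPM to 152 and 187 CPM (log2 fold change 5.25 ± 0.44 (SE), adjusted p = 0.00014), with shared reads in all 16 libraries.

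Heat shock proteins, molecular chaperones that also accumulate in maturing seeds, had no common direction, with 5 of 27 higher and 8 lower. The small heat shock protein gene Chr3g0078561 fell from 13.6 and 13.7 CPM to 1.30 and 0.973 CPM (log2 fold change -3.57 ± 0.31 (SE), adjusted p = 0.00017). Among HSP70 genes, Chr4g0031301 rose from 248 and 243 CPM to 769 and 923 CPM (log2 fold change 1.78 ± 0.21 (SE), adjusted p = 0.00062), while Chr7g0223291, at 2266 and 2368 CPM in C1 and 2011 and 2128 CPM in C1P, did not pass the test (adjusted p = 0.52). Both HSP70 genes share reads with similar genes in every library.

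Of 36 redox enzymes 18 rose and 6 fell, without C1P replicate 2 the counts were 12 and 5, and with library totals 9 and 8. Peroxiredoxin Chr1g0177361, which removes peroxides, rose from 84.4 and 73.1 CPM to 338 and 419 CPM (log2 fold change 2.26 ± 0.22 (SE), adjusted p = 0.00025), and superoxide dismutase Chr7g0271211 fell from 2.97 and 4.11 CPM to 0.469 and 0.259 CPM (log2 fold change -3.23 ± 0.43 (SE), adjusted p = 0.0012).

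**Figure D3:**
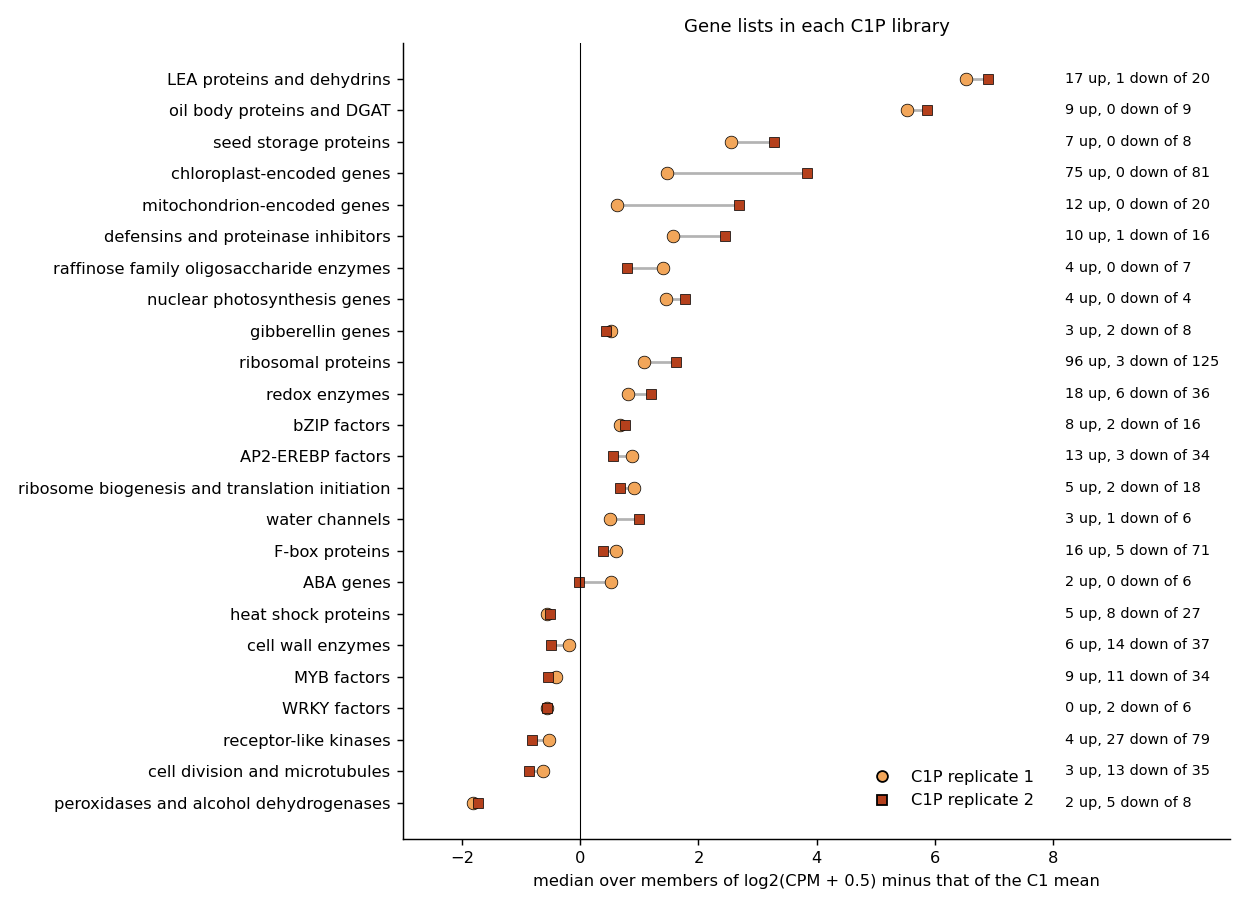
For 24 gene lists, the median over tested members of log2(CPM + 0.5) relative to the C1 mean is drawn for C1P replicate 1 (circles) and replicate 2 (squares), and the counts of members called higher and lower are printed at the right. LEA and oil body lists lie at 5.53 to 6.90 in both replicates, whereas the chloroplast list is at 1.46 in replicate 1 and 3.83 in replicate 2.

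The study grouped radicle genes by their PEG response, and these groups give a view of how far cotyledons share it. Of 878 tested genes of its cluster 1, raised in R1P alone among radicle groups, 475 rose in C1P and 3 fell, with a median of 1.23. Of 1007 tested genes of cluster 2, raised by PEG at both radicle stages, 600 rose and 6 fell, with a median of 1.35. The copy that was read held raised genes of clusters 1 and 2 only, 1998 in all, so cluster 2 may be incomplete. The study's other clusters of genes raised in R1P were absent from it. Of 91 genes of cluster 5, lower in R1P than in R1 and R5, 57 fell and 1 rose, with a median of -2.43. The 83 tested DT-DAR-DEGs, cluster 1 genes with chromatin that was more open in R1P, had 64 higher, 0 lower and a median of 3.22, and without C1P replicate 2 the counts were 64 and 0 as well. Over all annotated genes, those in tables of genes raised in R1P rose in C1P in 1075 of 1885 cases (57%) and fell in 9 (0.477%), and those lowered in R1P fell in 943 of 1850 (51%) and rose in 6 (0.324%), while genes of the chromatin tables alone rose in 119 of 532 (22.4%) and fell in 75 (14.1%). These groups were selected on radicle libraries, which share no library with the cotyledons, but they were selected for a PEG response.

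A direct comparison with the radicle of the same stage shared no libraries, although the organs may come from the same seeds. In R1P against R1, 13.5% of 25524 genes rose and 18.1% fell. Among 23060 genes tested in both organs, 1830 rose in both, which is 57.7% of the cotyledon list and 55.6% of the 3289 genes of the radicle list. In addition 2003 fell in both, 58.2% of the cotyledon list and 48.1% of 4161 in the radicle, and 44 and 28 went in opposite directions. Across 11224 genes of at least 10 CPM, the log2 fold changes of the organs had a Pearson correlation of 0.780, given as a description because genes are not independent. The difference between the organs itself passed the test for 1064 genes with a more positive (4.17%) and 1041 with a more negative (4.08%) change in cotyledons. The total of 2105 became 1213 without C1 replicate 2, 1299 without C1 replicate 1 and 1924 without C1P replicate 2.

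**Figure D4:**
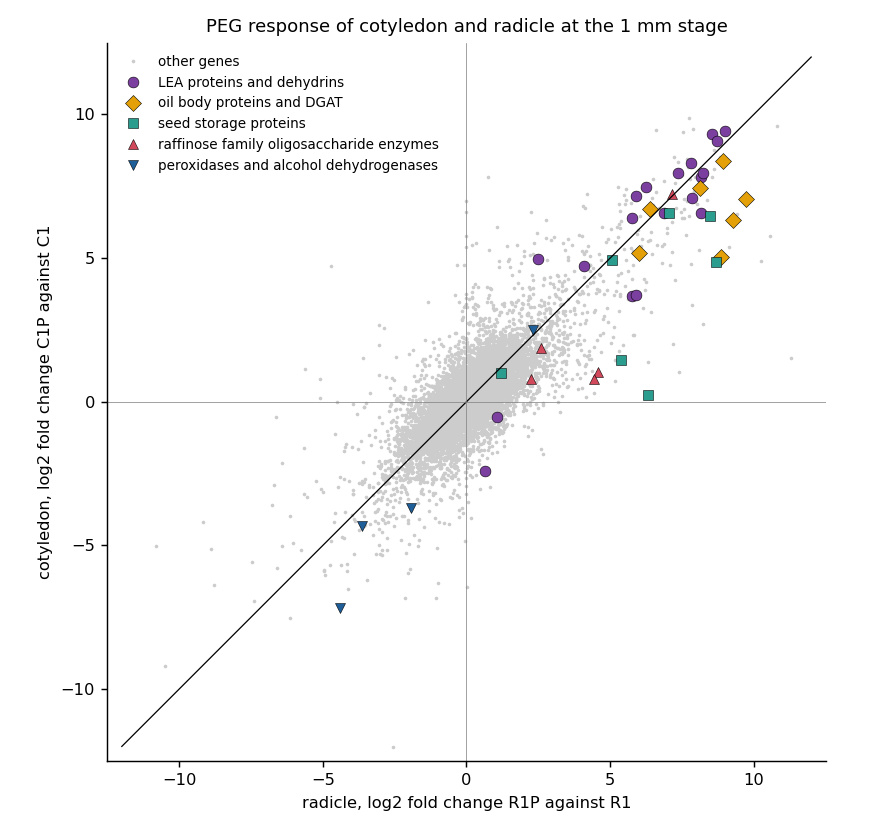
Each point is 1 of 11224 genes averaging 10 CPM or more, placed by its log2 fold change in radicles (R1P against R1, x axis) and in cotyledons (C1P against C1, y axis), with 5 lists in colour and the line of equality in black. LEA genes scatter about the line. Most storage protein and raffinose pathway genes and 3 of the oleosins lie below it, with a smaller rise in cotyledons. Most members of the storage, raffinose and oil body lists were chosen because they rose in R1P.

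Several seed reserve genes had a smaller response in cotyledons than in radicles. With all 16 libraries modelled, the difference was called more negative for 4 of 9 storage genes and 4 of 7 raffinose pathway genes. It was also more negative for 3 of 9 oil body genes, and more positive for 1 raffinose pathway gene. Of the 20 LEA genes it was more negative for 4 and more positive for 1. Most members of these lists were chosen because they rose in R1P, which favours a smaller change in cotyledons. Among all 1963 annotated genes raised in R1P, the difference was more negative for 239 and more positive for 27. How far that choice accounts for the counts was not tested. Raffinose synthase Chr7g0257731, on the scale of all 16 libraries, went from 529 and 512 CPM in R1 to 13219 and 11673 CPM in R1P and from 10512 and 10312 CPM in C1 to 23469.5 and 19748 CPM in C1P. Its change was 4.58 in radicles, and the cotyledon change minus the radicle change, called the difference here, was -3.53 on the log2 scale (adjusted p = 0.00012). The untreated organs were thus further apart than the treated ones.

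The same held for legumin Chr7g0261351, with 2.91 and 2.80 CPM in R1, 119 and 121 CPM in R1P, 172 and 179 CPM in C1 and 434 and 558 CPM in C1P (difference -3.89, adjusted p = 3.5e-05). For the *AtOLEO4* orthologue Chr6g0449621 the levels were 1.6 and 1.92 CPM in R1 and 809.9 and 824 CPM in R1P against 10.4 and 9.83 CPM in C1 and 319 and 358 CPM in C1P (difference -3.79, adjusted p = 0.0011). Here the treated radicle exceeded the treated cotyledon as well. Cathepsin L Chr1g0199131 had a difference of -3.48 (adjusted p = 6.5e-05), with 45.6 and 39.5 CPM in R1 and 2424 and 2472 CPM in R1P.

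Regulators of ABA responses differed between organs in both directions. *MtABI5* rose more in cotyledons, with 50.1 and 59.3 CPM in R1 and 150.2 and 171 CPM in R1P on the scale of all 16 libraries, and 24.9 and 22.4 CPM in C1 and 276 and 263 CPM in C1P (difference 1.95, adjusted p = 0.0055). *MtABI4* rose in radicles (1.49, adjusted p = 0.00033) and its change was lower in cotyledons (difference -1.84, adjusted p = 0.0047). ABA 8'-hydroxylase Chr1g0164371 rose in radicles from 2.42 and 1.08 CPM to 16.7 and 15.2 CPM, a change that exceeded the cotyledon one (difference -3.16, adjusted p = 0.001). For *MtABI3* the difference did not pass the test (-0.33, adjusted p = 0.62). Without C1P replicate 2 the difference was 1.99 for *MtABI5*, -1.64 for *MtABI4* and -3.07 for the hydroxylase.

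Falls that were larger in cotyledons included the bicarbonate transporter Chr7g0270341 (difference -3.11, adjusted p = 0.0001), the F-box gene Chr5g0441461 (-2.72, adjusted p = 0.00033) and the kinase Chr1g0186431 (-2.36, adjusted p = 0.00057), each of which also fell in radicles but by less. LEA_2 gene Chr8g0348161 fell in cotyledons and was at 5.82 and 5.65 CPM in R1 and 9.27 and 8.52 CPM in R1P (difference -3.01, adjusted p = 0.0027). Pectinesterase Chr3g0079381 rose more in cotyledons (difference 3.28, adjusted p = 0.0013).

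Cotyledons of the 5 mm stage gave a further comparison with no shared libraries but 1 model of the spread. In C5P against C5, 9.02% of genes rose and 12.1% fell. Genes higher at both stages numbered 1365, 43.0% of the 1 mm list and 65.6% of the 2081 of the 5 mm list, and 1579 fell at both, 45.9% and 56.4% of the lists. The response itself differed for 153 genes with a more positive (0.663%) and 129 with a more negative (0.559%) change at 1 mm. That count of 282 was unstable, at 143 without C1P replicate 2, 1 without C1 replicate 1 and 1 without C1 replicate 2.

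*MtABI3* rose less at 1 mm, with 5.54 and 3.68 CPM in C5 and 99.9 and 99.3 CPM in C5P against 87.0 and 91.9 CPM in C1 and 319 and 199 CPM in C1P (difference -2.90, adjusted p = 0.025, and 0.037 without C1P replicate 2). The bZIP factor Chr7g0266041 had 2.96 and 2.32 CPM in C5 and 316 and 224 CPM in C5P (difference -2.94, adjusted p = 0.018). The kinase Chr1g0186431 fell more at 1 mm, since it went from 139 and 175 CPM only to 61.2 and 41.2 CPM at 5 mm (difference -3.53, adjusted p = 0.013). None of these 3 differences was called without C1 replicate 1 or without C1 replicate 2. At 5 mm 17 of 20 LEA, 9 of 9 oil body, 4 of 8 storage and 4 of 7 raffinose genes rose. At 1 mm the counts were 17, 9, 7 and 4. The difference between the stages was called for none of the genes on these lists. Ribosomal protein genes rose in 6 of 125 cases at 5 mm against 96 at 1 mm, and the difference was called for none. Chloroplast-encoded genes rose in 19 of 81 cases at 5 mm against 75 at 1 mm, and the difference was called for 1.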

How the data were processed

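The authors assigned single-end reads to the Mtv5 transcriptome with Salmon version 1.2 after FastQC and deposited estimated counts for 44473 genes, not scaled for depth or length. The estimated counts were rounded here. No column was left unused. C1P and C1 were compared in R version 4.3.3 with the quasi-likelihood test of edgeR version 4.0.16, after filterByExpr and TMM normalization and with Benjamini-Hochberg adjustment, in 1 model of the 8 cotyledon libraries (23060 genes). Differences between organs came from a model of all 16 libraries (25524 genes). Calls required an adjusted p below 0.05 and a change over 1 on the log2 scale in either direction. Each SE was derived from the test, as the absolute log2 fold change divided by the square root of the F statistic. A level of 3 counts or fewer per library was taken as the floor, and bounds cover counting error only. On simulated data for C1P against C1 (22900 genes), 94 of 100 genes changed by 2 and 100 of 100 changed by 3 on the log2 scale were recovered, with 12 false calls. The simulation gave every library the C1 levels and the same spread, with 200 genes changed. It held far fewer changes than the real comparison and not the wider spread between C1P replicates, so its rates need not hold there.

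Annotations came from a copy of the study's supplementary tables that held only part of the genes raised or lowered in R1P. Of the identifiers, 0 matched the RefSeq gene table, so coordinates and sequences were not used here. Members and gene lists were chosen with earlier results of these data known. Named genes were those the study names, the 10 largest rises and falls of genes annotated as other than putative or hypothetical protein and the 3 of all genes at 10 CPM or more without overlap, up to 4 per list, and the 5 most abundant per group. These rules covered 136 genes, of which 88 are named, and 16 more were named after their values were seen. Alternatives were RLE factors, library totals, organelle genes removed, no filter, DESeq2 version 1.42.0, adjusted p alone, TREAT on the edgeR fit, other model libraries, a replicate block and each replicate left out. Figures used matplotlib version 3.10.9.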

Additional observations from a re-analysis of the deposited data

Results flagged for a closer look

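Differences between the PEG response of 1 mm cotyledons and that of another group, each from a test of the difference itself, stand here as values on the log2 scale (cotyledon response minus the other). In all, 2105 genes differed from 1 mm radicles and 282 from 5 mm cotyledons. Among genes of the maturation programme, responses were smaller than in radicles for oleosins Chr6g0449621 (-3.79), Chr7g0227501 (-2.92) and Chr3g0139191 (-2.64), for storage protein genes Chr1g0185811 (-6.07), Chr7g0261351 (-3.89), Chr2g0319551 (-3.82) and Chr1g0185841 (-1.98), and for raffinose synthases Chr4g0058701 (-4.30), Chr7g0257741 (-3.62) and Chr7g0257731 (-3.53). All of these genes came from tables of genes raised in R1P, a choice that favours a smaller change in cotyledons. For Chr1g0185811 both R1 libraries were close to 0, so its fitted difference is not a bound. The LEA_2 genes Chr8g0348161 (-3.01) and Chr2g0330241 (-1.57), water channel Chr6g0478191 (-3.0), *MtPDF51* Chr8g0385301 (-3.66), *MtPDF32* Chr2g0317741 (-2.95), cathepsin L Chr1g0199131 (-3.48) and HSP70 Chr4g0031301 (-2.16) were also more negative.

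Among regulators the difference from radicles was 1.95 for *MtABI5* Chr7g0266211 and 1.77 for the GATA factor Chr3g0140331. It was -1.84 for *MtABI4* Chr5g0437371, -3.16 for ABA 8'-hydroxylase Chr1g0164371, -1.59 for bZIP factor Chr7g0266041 and -2.35 for BTB-POZ gene Chr3g0103031. Among other genes it was 3.28 for pectinesterase Chr3g0079381 and 2.51 for the abundant unannotated gene Chr4g0024191. It was -2.72 and -1.28 for F-box genes Chr5g0441461 and Chr1g0149351, -3.11 for bicarbonate transporter Chr7g0270341, -2.36 for kinase Chr1g0186431, -2.74 for peroxidase Chr4g0075241, -1.76 and -3.79 for alcohol dehydrogenases Chr3g0125961 and Chr5g0411941, -2.13 for matrilysin Chr5g0414821 and -1.90 for superoxide dismutase Chr7g0271211. The unannotated gene Chr8g0367231 had -9.43, a fitted value that is no bound because C1P was at 0. Without C1P replicate 2 the difference became -3.0 for Chr7g0257741, -3.69 for Chr4g0058701, -4.49 for *MtPDF51* Chr8g0385301 and -4.60 for Chr2g0319551, and without C1P replicate 1 it became -4.74 for Chr7g0257741, -5.48 for Chr4g0058701 and -3.25 for Chr3g0103031. Superoxide dismutase was not called when any 1 library of C1 or C1P was left out (adjusted p = 0.059 to 0.17), and without C1P replicate 2 the difference for Chr3g0103031 (adjusted p = 0.054) and Chr2g0330241 (0.099) was not called either. Without C1 replicate 1 those not called were Chr3g0139191 (adjusted p = 0.0524), *MtPDF51* Chr8g0385301 (0.20), Chr3g0125961 (0.074), Chr3g0103031 (0.0507), Chr5g0414821 (0.061) and Chr2g0330241 (0.066), and without C1 replicate 2 they were *MtPDF51* (0.097), Chr3g0125961 (0.0527), Chr2g0330241 (0.13) and Chr5g0411941 (0.0556).

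Against 5 mm cotyledons the difference was -2.90 for *MtABI3* Chr7g0237841, -2.94 for bZIP factor Chr7g0266041, 5.42 for chloroplast gene CPg0492371 (4.16 without C1P replicate 2, 6.07 without C1P replicate 1), -2.20 for F-box gene Chr5g0441461, -1.98 for bicarbonate transporter Chr7g0270341 and -3.53 for kinase Chr1g0186431. Without C1P replicate 2 the F-box gene (adjusted p = 0.076) and the transporter (0.079) were not called, and none of these 6 was called without C1 replicate 1 (adjusted p = 0.11 to 0.20) or C1 replicate 2 (0.10 to 0.20). With 2 libraries per group, no single library could be tested against its own group.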

How the results depend on the processing

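Genes called higher in C1P numbered 1590 with library totals and 1316 with TREAT, and 1629 to 3503 when a C1 or C1P library was left out, against 3171. Genes called lower numbered 6382 with library totals and 1363 with TREAT, and 1694 to 3467 with a library left out, against 3442. Among fits that left out a library, the lowest counts came without C1 replicate 2 (1629 and 1694) and without C1 replicate 1 (1841 and 1707), which leave 1 library that is assumed to vary like the other groups. The difference from 5 mm cotyledons, 282 genes, became 1186 with no filter, 1784 with DESeq2, 29 with TREAT, 1870 with all 16 libraries in the model, and 145 with organelle genes removed and C1P replicate 2 left out (chosen after seeing the data), and ranged from 1 to 1009 with a library left out. The difference from radicles, 2105 genes, became 468 with TREAT and 1213 to 2601 with a library left out.

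Replicate numbers were not taken as pairs, since the labels tie no libraries by number and same-numbered deviations correlated at -0.409 between C1P and C1, 0.266 between C1P and C5P, 0.236 between C1 and C5 and -0.515 between C5P and C5, and the replicate block gave 2723 higher and 2757 lower, 2 genes for the stage difference and 1978 for the organ difference. Crossed numbers (chosen after seeing the data) gave 3402 and 4007.

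Of 103 named genes tested, 93 were called, 73 of them under each of the 16 alternatives, and none reversed. One list median of 30, that of ABA genes, changed sign. Depth limits genes near 3 counts, which is 0.156 and 0.194 CPM in C1P and 0.114 and 0.115 CPM in C1.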

Other observations

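Genes with no annotation, or with only that of a putative protein, included the largest changes. The first 3 named here are listed as putative proteins and the others are in none of the tables as read. Chr2g0282421 rose from 23.6 and 16.7 CPM to 8565 and 18508 CPM (log2 fold change 9.39 ± 0.69 (SE), adjusted p = 8.2e-05, 8.73 without C1P replicate 2), which placed it among the 5 genes with the most counts in C1P. Chr4g0000401 went from 0.875 and 0.576 CPM to 324 and 720.2 CPM (log2 fold change 9.48 ± 0.55 (SE), adjusted p = 3.6e-05, 8.79 without it), and Chr8g0364501, with 3 or fewer counts in each C1 library, was at 23.4 and 59.0 CPM in C1P, at least 359.7-fold higher, or at least 204.1-fold higher without C1P replicate 2. In the other direction Chr3g0125941, whose identifier lies between those of the alcohol dehydrogenases Chr3g0125911 and Chr3g0125961, fell from 33.3 and 32.2 CPM to 0.261 and 0.0648 CPM (log2 fold change -7.53 ± 0.51 (SE), adjusted p = 5.7e-05, -6.94 without C1P replicate 2). Chr8g0367231 had 19.1 and 25.9 CPM in C1 and no counts in C1P, at least 128-fold lower, and Chr4g0020521, with 25.2 and 15.5 CPM in C1, was at least 116-fold lower.

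Among genes with the most counts, Chr8g0347861 was at 12118 and 11261 CPM in C1 and 10869 and 10245 CPM in C1P (adjusted p = 0.57), so its libraries differed by less than the threshold of the test. Chr4g0024191 was at 7841 and 8055 CPM and 14448 and 11760.5 CPM, with a log2 fold change of 0.72 that was too small to be called, and Chr4g0064741 fell from 4091 and 5112 CPM to 2216 and 2297 CPM (log2 fold change -1.03 ± 0.20 (SE), adjusted p = 0.007), at the threshold of 2-fold and not called with RLE size factors (-0.97), DESeq2 (-0.97) or all 16 libraries in the model (-1.0), nor without C1 replicate 2 (-0.84).

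Of the 20 genes at exactly 0 in C1P replicate 2 alone, 1 has an annotation other than putative or hypothetical protein and 1 was called. Chr7g0221831 was at 63.5 and 107 CPM in C1, 379 CPM in C1P replicate 1 and 0 in replicate 2, and Chr2g0284571 at 171 and 232 CPM, 267 CPM and 0. Conversely 6 genes had at least 10 CPM in C1P replicate 2 and 3 or fewer counts in the other 7 cotyledon libraries, and no other cotyledon library had such a gene. Why these estimates differ was not tested.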
